A study of Drosophila melanogaster with 10 samples.

Results

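Condensin and cohesin are ring-shaped complexes that shape chromosomes, and the genes of their subunits are described here in sorted Drosophila melanogaster S2 cells, a cultured line of embryonic origin with haemocyte-like properties. The 10 genes were SMC2, glu, barr, Cap-G, Cap-H2 and Cap-D3 of condensin and SMC1, SMC3, vtd and SA of cohesin. Members were the probe sets annotated to 1 of these genes alone, by platform symbol, current name or synonym. They came to 9 of 18769 probe sets tested, 1 for each of 9 genes. SA is listed under its current symbol SA1, and vtd, the gene of the cohesin subunit Rad21, was paired with no probe set in the table used and was not analysed here.

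RNA was measured on 10 Affymetrix arrays, each from 25000 sorted cells. Control cells gave 3 G1 and 3 G2/M libraries (n = 3 per phase), and cells with SLIMP knockdown gave 2 of each (n = 2 per phase). Control cells are labelled WT, knockdown was switched on in stable lines with copper sulfate, and the phases were sorted live by DNA dye. SLIMP is a mitochondrial protein of insects related to seryl-tRNA synthetase. What the control lines carried, whether they also received copper, which promoter drove the knockdown and whether the lines were clonal are not given in the sources used here. Values are log2 signals per probe set, and a library means 1 array. A culture here is a pair of libraries, 1 per phase, with the same genotype label and number, which gives control 1, control 2, control 3, knockdown 2 and knockdown 3. The labels do not say whether the numbers mark cells grown separately, so each p-value measures only how these samples vary, and that variation may be technical.

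Both complexes are built on a pair of SMC ATPases, long coiled-coil proteins that a kleisin subunit closes into a ring, with HEAT-repeat subunits bound to the kleisin. Condensin compacts and resolves mitotic chromosomes. Its SMC pair is SMC2 and glu (the fly SMC4). Condensin I adds the kleisin barr, Cap-G and Cap-D2, while condensin II adds the kleisin Cap-H2 and Cap-D3. Cohesin holds sister chromatids together from S phase until anaphase and also folds interphase chromosomes, with SMC1, SMC3, the kleisin vtd and the HEAT-repeat subunit SA.

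The libraries divided in a way that the genotype labels do not describe. Slimp, the knockdown target, had a log2 signal of 12.55 in G1 and 12.51 in G2/M of control 3 and of 12.59 and 12.53 in knockdown 2, and lay between 8.68 and 9.06 in the other 6 libraries, knockdown 3 among them. No direction is therefore drawn from the genotype labels, and values are given by culture. The sort was checked on 5 measured G2/M markers, each read by the brightest probe set of its gene, and all rose from G1 to G2/M. ncd, a minus-end kinesin, differed by 2.02, CycB3 by 1.29, fzy by 1.06, the kinase gene aurB by 0.94 and CycB by 0.53 (log2, adjusted p from 0.00314 to 0.0240 in limma). The other 2 probe sets of fzy differed by -0.19 and -0.28 and did not pass, though the second passed with culture as a block (adjusted p of 0.0490 in limma). The call of CycB was lost when any library of control 1, control 2 or knockdown 3 was left out (adjusted p from 0.0578 to 0.0879 in limma). Of 3 measured G1/S genes none passed without a block, with PCNA at -0.28 and Orc1 at 0.12, and PCNA passed with culture as a block (adjusted p of 0.0143 in limma). The copper-induced gene MtnB fell by 1.58, a call that was lost without any 1 library of control 1 or control 2 or without G1 knockdown 3 (adjusted p from 0.0616 to 0.0790 in limma). Of 8 haemocyte markers measured, He fell by 0.33 (adjusted p of 0.0493 in limma) and the other 7 did not pass, while 3 rose and 2 fell with culture as a block. The call of He was lost with median centring (0.0604) and without any 1 library other than G1 control 3 or G1 knockdown 2 (0.0680 to 0.141). The median of this list lay between 10.60 and 10.95 in all libraries. List medians were 8.51 to 9.11 for 3 neuron genes, 4.80 to 5.45 for 3 germline genes and 4.28 to 4.65 for 2 fat body genes, and muscle genes were not analysed here. None of these passed on the brightest probe set, but another of the 4 probe sets of brp, a neuron gene, fell by 0.71 (adjusted p of 0.00957 in limma), and bam of the germline list read 8.15 to 9.72. The list medians also hide elav of the neuron list, at 10.16 to 10.40, and NimC1 of the haemocyte list, at 7.32 to 8.05.

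The main comparison asked which subunit genes differed between G1 and G2/M. The genes of the condensin SMC pair and of the condensin I subunits barr and Cap-G were higher in G2/M. SMC2 was 2.0-fold higher, glu 1.92-fold, barr 1.52-fold and Cap-G 1.44-fold. These 4 of 9 members passed, all upward. Of all probe sets 5.22% passed, with 3.40% higher and 1.82% lower in G2/M (limma, no block, Benjamini-Hochberg over all probe sets at 0.05). No cohesin gene passed without a block, and SMC1 alone did so when each culture was compared with itself. Each library pools many cells, so more RNA per cell and more cells that express a gene cannot be told apart.

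SMC2, one arm of the condensin SMC pair, read 9.67, 9.73, 9.70, 9.70 and 9.39 (log2) in the G1 libraries of control 1, control 2, control 3, knockdown 2 and knockdown 3. In G2/M the same cultures read 10.80, 10.78, 10.40, 10.34 and 10.87. All G2/M libraries lay above all G1 libraries, with a gap of 0.61 between the nearest ones, and control 3 and knockdown 2 were the lowest in G2/M. The difference was 0.997 ± 0.12 (SE), with an adjusted p of 0.00557 in limma and of 0.000868 with culture as a block. Of the 18769 probe sets, 43 had a larger difference in the same direction.

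**Figure D1:**
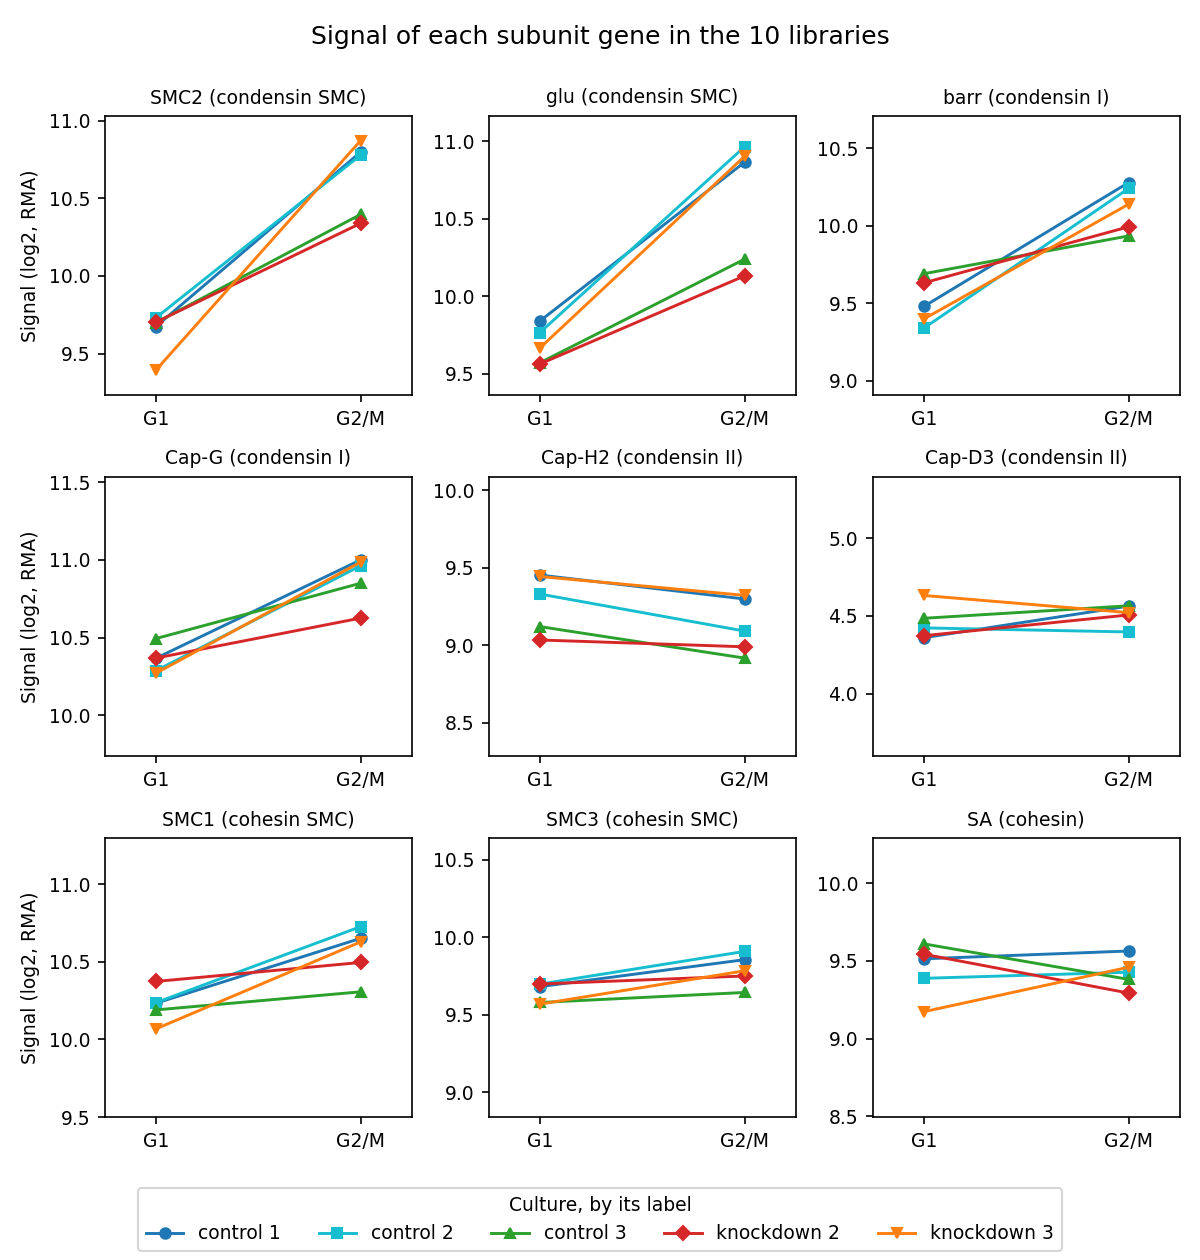
Signal (log2, RMA) of the 9 measured subunit genes in G1 and G2/M, with 1 line for each of the 5 cultures, named by its label; every panel spans the same height on the log2 scale. SMC2, glu, barr and Cap-G have all G2/M points above all G1 points. In G2/M the lowest points of every gene except Cap-D3 belong to control 3 and knockdown 2.

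glu, the partner of SMC2, read 9.84, 9.77, 9.57, 9.56 and 9.67 in G1, in the same order of cultures. Its G2/M values were 10.86, 10.96, 10.24, 10.13 and 10.90. The phases did not overlap here either, and control 3 and knockdown 2 were again the lowest in G2/M. The difference was 0.94 ± 0.18 (SE), with an adjusted p of 0.0200 in limma and of 0.000774 with culture as a block. Within cultures, the phase differences of SMC2 and glu differed by 0.06 ± 0.14 (SD, n = 5), less than the spread between cultures.

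barr, the kleisin of condensin I, read 9.48, 9.34, 9.69, 9.63 and 9.40 in G1. In G2/M it read 10.28, 10.24, 9.93, 9.99 and 10.14. Control 3 and knockdown 2 were the highest libraries in G1 and the lowest in G2/M, so their differences of 0.24 and 0.36 were the smallest of the 5, and the phases did not overlap. The mean difference was 0.61 ± 0.10 (SE), with an adjusted p of 0.0131 in limma and of 0.00372 with culture as a block.

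Cap-G, a HEAT-repeat subunit of condensin I, read 10.37, 10.29, 10.49, 10.37 and 10.27 in G1. The G2/M libraries read 11.00, 10.96, 10.85, 10.63 and 10.99. The phases were separate, with 0.13 between the nearest libraries, and knockdown 2 was the lowest in G2/M. The mean difference was 0.53 ± 0.08 (SE), with an adjusted p of 0.0116 in limma and of 0.00246 with culture as a block. Cap-G and barr had phase differences that were 0.08 ± 0.13 (SD, n = 5) apart within cultures, again less than the spread.

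Separate phases were seen for these 4 members and no other, where 6.01% of all probe sets had every G2/M library above every G1 library. Without a block, the call of glu was lost when 1 of 6 libraries was left out. Its adjusted p was 0.0720 without G2/M control 1, 0.0650 without G2/M control 2, 0.0574 without G1 control 2, 0.0549 without G1 knockdown 2, 0.0537 without G1 knockdown 3 and 0.0539 without G2/M knockdown 3 (limma). The call of barr was lost without G2/M control 1, G2/M control 2 or G2/M knockdown 3, with adjusted p of 0.0505, 0.0519 and 0.0527 in limma. With culture as a block, all 4 genes passed whichever culture was left out.

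Neither condensin II gene passed, and only Cap-H2 was bright enough to be set against a condensin I gene. Cap-H2, the kleisin of condensin II, known in flies for keeping homologous chromosomes unpaired, read 9.45, 9.33, 9.12, 9.03 and 9.44 in G1. Its G2/M values were 9.30, 9.09, 8.92, 8.99 and 9.32. It was lower in G2/M in 5 of 5 cultures, where 13.6% of all probe sets were, but its phases overlapped. In each phase control 3 and knockdown 2 were its lowest libraries. The difference was -0.15 ± 0.12 (SE), with an adjusted p of 0.571 in limma and of 0.0787 with culture as a block. Within cultures, the phase difference of barr exceeded that of Cap-H2 by 0.76 ± 0.32 (SD, n = 5), in 5 of 5 cultures. The smallest p that an exact sign-flip test over 5 cultures can give is 0.0625 (two-sided), and this comparison gave it. Cap-D3, a HEAT-repeat subunit of condensin II, read between 4.36 and 4.63 in all 10 libraries, near the bottom of the scale, where a change would hardly show. Its difference was 0.06 ± 0.07 (SE), upward in 3 of 5 cultures.

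**Figure D2:**
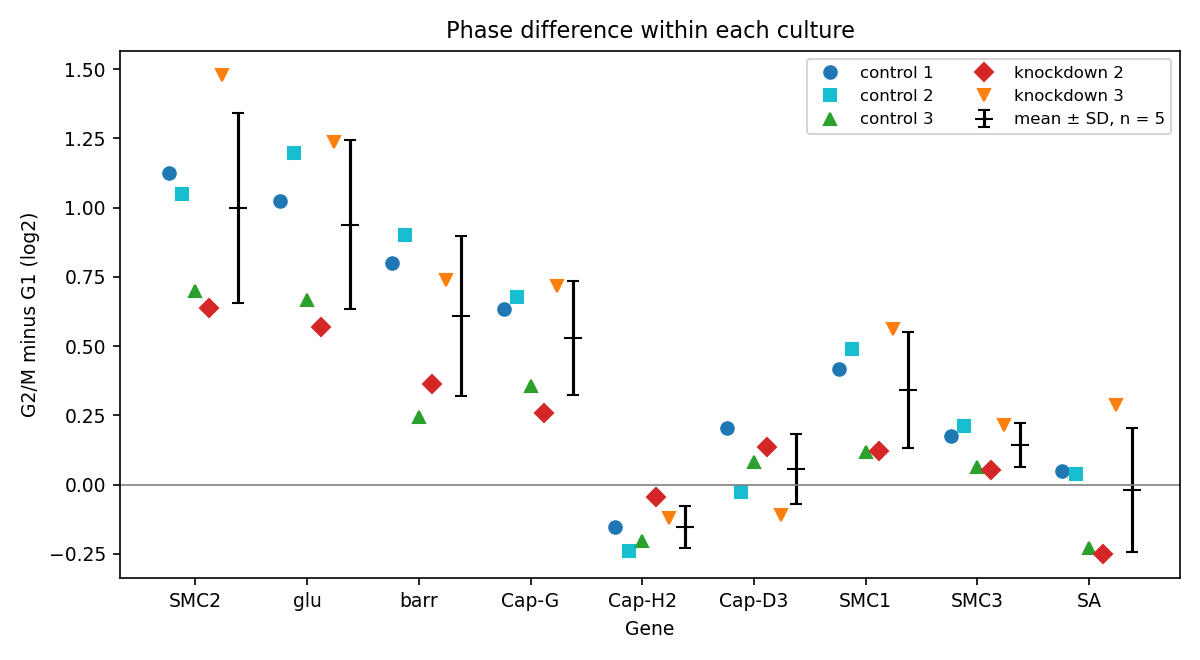
G2/M minus G1 (log2) of each subunit gene within each of the 5 cultures; black bars give the mean ± SD over cultures. All cultures lie above 0 for SMC2, glu, barr, Cap-G, SMC1 and SMC3 and below 0 for Cap-H2, while Cap-D3 and SA have cultures on both sides.

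Of the cohesin genes, SMC1 had the largest phase difference. SMC1, the cohesin SMC subunit that pairs with SMC3, read 10.23, 10.24, 10.19, 10.37 and 10.07 in G1. In G2/M it read 10.65, 10.73, 10.31, 10.50 and 10.63. Its G2/M library was above its G1 library in every culture, but G1 knockdown 2 lay above G2/M control 3. The difference was 0.34 ± 0.10 (SE), with an adjusted p of 0.0811 in limma. With culture as a block it passed, at an adjusted p of 0.0168 and as 1 of 5 members called higher, where 10.3% of all probe sets were called higher. That blocked call was lost without control 1, control 2 or knockdown 3, with adjusted p of 0.0537, 0.0683 and 0.0609 in limma, and without a block SMC1 passed when G2/M control 3 was left out (0.42, adjusted p of 0.0264).

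SMC3 read 9.68, 9.70, 9.58, 9.70 and 9.57 in G1. The G2/M libraries read 9.86, 9.91, 9.64, 9.75 and 9.78. It was higher in G2/M in 5 of 5 cultures, where 15.7% of all probe sets were, with phases that overlapped. The difference of 0.14 ± 0.07 (SE) did not pass, with an adjusted p of 0.309 in limma and of 0.0988 with culture as a block.

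SA, the HEAT-repeat subunit of cohesin, read 9.51, 9.39, 9.61, 9.54 and 9.17 in G1. Its G2/M values were 9.56, 9.43, 9.38, 9.29 and 9.46. It was higher in G2/M in 3 cultures and lower by 0.23 and 0.25 in control 3 and knockdown 2, and the phases overlapped. The mean difference was -0.02 ± 0.09 (SE), with an adjusted p of 0.945 in limma, and became 0.13 without those 2 cultures.

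The condensin genes had a larger median phase difference than the cohesin genes, but not every condensin gene did. Cap-D3 (0.06) and Cap-H2 (-0.15) lay below SMC3 (0.14), and Cap-H2 also lay below SA (-0.02). The cohesin side lacks vtd. The median phase difference of the 6 condensin genes was 0.57 and that of the 3 cohesin genes 0.14, against 0.00463 over all probe sets. By culture the condensin median was 0.72, 0.79, 0.30, 0.31 and 0.73 in control 1, control 2, control 3, knockdown 2 and knockdown 3. The cohesin median was 0.17, 0.21, 0.06, 0.05 and 0.29. Among the SMC genes, which form the matching part of both complexes, SMC2 exceeded SMC1 by 0.66 ± 0.16 and SMC3 by 0.85 ± 0.27 in phase difference (SD, n = 5, within cultures). glu exceeded SMC1 by 0.60 ± 0.10 and SMC3 by 0.80 ± 0.23. Each of these held in 5 of 5 cultures, with p = 0.0625 in the exact sign-flip test over 5 cultures, the smallest it can give. SMC1 exceeded SA by 0.36 ± 0.06 (SD, n = 5), also in 5 of 5 cultures.

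**Figure D3:**
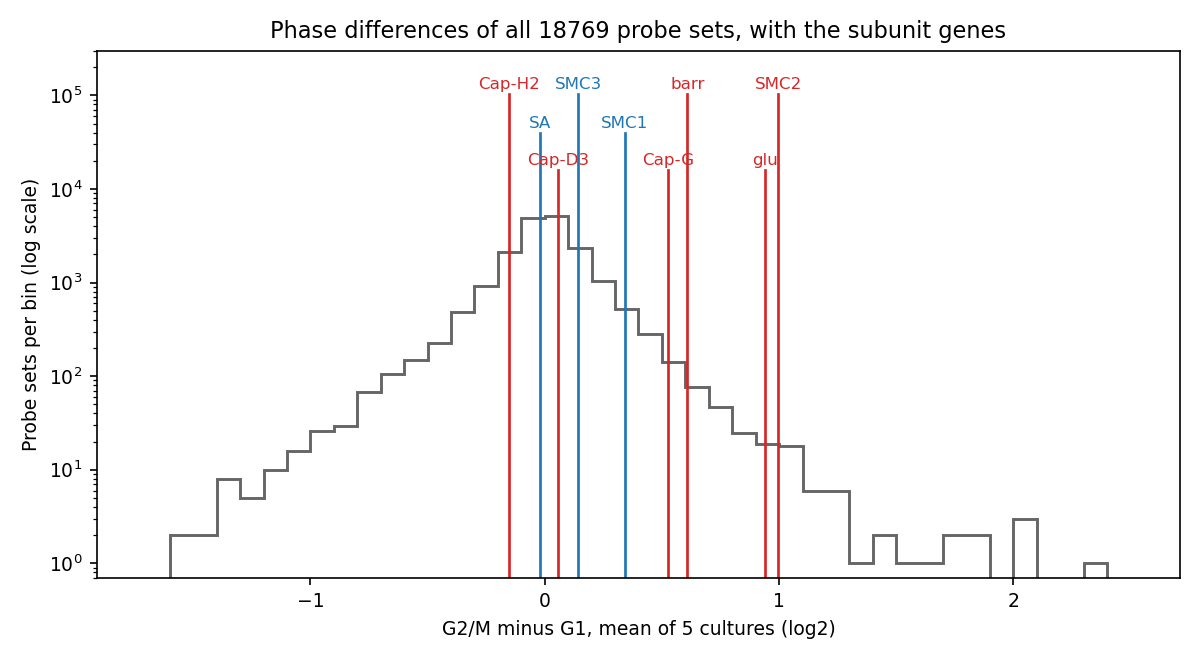
Distribution of the phase difference (G2/M minus G1, mean of 5 cultures, log2) over all 18769 probe sets on a log count axis, with lines at the condensin genes (red) and cohesin genes (blue). SMC2 and glu lie in the upper tail, where 43 and 53 probe sets lie further to the right, and SA, Cap-D3, Cap-H2 and SMC3 lie in the central bulk.

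The size of the phase difference was not the same in all cultures. For 7 of 9 members, all except Cap-H2 and Cap-D3, control 3 and knockdown 2 had the 2 lowest values of G2/M minus G1. The same held for 21.2% of all 18769 probe sets. Among called genes it held for 4 of 4 members against 67.6% of the 638 probe sets called higher without a block, and for 5 of 5 members against 51.6% of 1933 with the block. For SMC2 the differences were 0.70 and 0.64 in control 3 and knockdown 2 and 1.12, 1.05 and 1.48 in control 1, control 2 and knockdown 3. For glu they were 0.67 and 0.57 against 1.02, 1.20 and 1.24. Control 3 and knockdown 2 are also the cultures with high Slimp signal. The SD of the phase difference over all probe sets was 0.276, 0.305, 0.253, 0.227 and 0.302 in control 1, control 2, control 3, knockdown 2 and knockdown 3. The marker aurB differed by 1.07, 1.18, 0.65, 0.52 and 1.26, and ncd by 1.99, 2.08, 1.87, 1.82 and 2.34, in the same order. The part of sort purity in the smaller differences was not tested.

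The cultures control 3 and knockdown 2 were then left out. Without a block the mean differences were 1.22 for SMC2, 1.15 for glu, 0.81 for barr, 0.68 for Cap-G and 0.49 for SMC1. The cultures left out had the lowest differences for these genes, so larger means follow from that choice. Control 3 and knockdown 2 were also fitted alone, with culture as a block. SMC2 then differed by 0.67, glu by 0.62, barr by 0.30 and Cap-G by 0.31. That fit was added after the data were seen and holds too few libraries to sort the genes into called and not called.

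The phase comparison was also made within each genotype label. In libraries labelled control, SMC2 differed by 0.96 ± 0.16 (SE, adjusted p of 0.0387 in limma) and was the 1 of 9 members called, where 0.629% of all probe sets were called higher. With culture as a block, SMC2, glu, barr and Cap-G passed (adjusted p from 0.0106 to 0.0275 in limma), where 4.51% of all probe sets were called higher. Without a block the call of SMC2 in control was lost when G1 control 1, G2/M control 1, G1 control 2, G2/M control 2, G1 control 3 or either G1 knockdown library was left out, with adjusted p from 0.0556 to 0.191 in limma. In libraries labelled knockdown, SMC2 differed by 1.06 ± 0.20 (SE) and glu by 0.90 ± 0.28 (SE), and none of 9 members passed in limma, where 0% of all probe sets did. Before adjustment 1724 probe sets had a p below 0.05, among them SMC2, glu, barr and Cap-G. With culture as a block SMC2 passed (adjusted p of 0.0444 in limma), where 0.789% of all probe sets were called higher, and glu did not (0.0511). The interaction, the test of whether the phase difference differed between the labels, called 0 members and 0% of probe sets in limma, with 333 probe sets at an unadjusted p under 0.05 and no member among them. The interaction estimates lay between -0.10 and 0.12. Each label holds a culture of high and at least 1 of low Slimp signal, so the interaction cannot decide whether the phase difference differs with that signal.

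The comparison of labelled knockdown with control within a phase showed no subunit gene past the threshold. Both labels mix cultures of high and low Slimp signal, so this comparison cannot decide whether a gene differs with that signal. In G1 the 9 differences lay between -0.15 and 0.08, with SMC2 the lowest and Cap-D3 the highest. In G2/M they lay between -0.17 and 0.05, with glu the lowest and Cap-H2 the highest. Limma called 0 of 9 members and 0% of all probe sets in both phases. At an unadjusted p under 0.05 stood 482 probe sets in G1 and 164 in G2/M, with no member among them. Levels by label overlapped for glu in G2/M, at 10.69 ± 0.39 (SD, n = 3) in control and 10.52 ± 0.54 (SD, n = 2) in knockdown libraries. These SDs hold a split by culture, with 10.13 to 10.24 in control 3 and knockdown 2 and 10.86 to 10.96 in the other cultures.

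**Figure D4:**
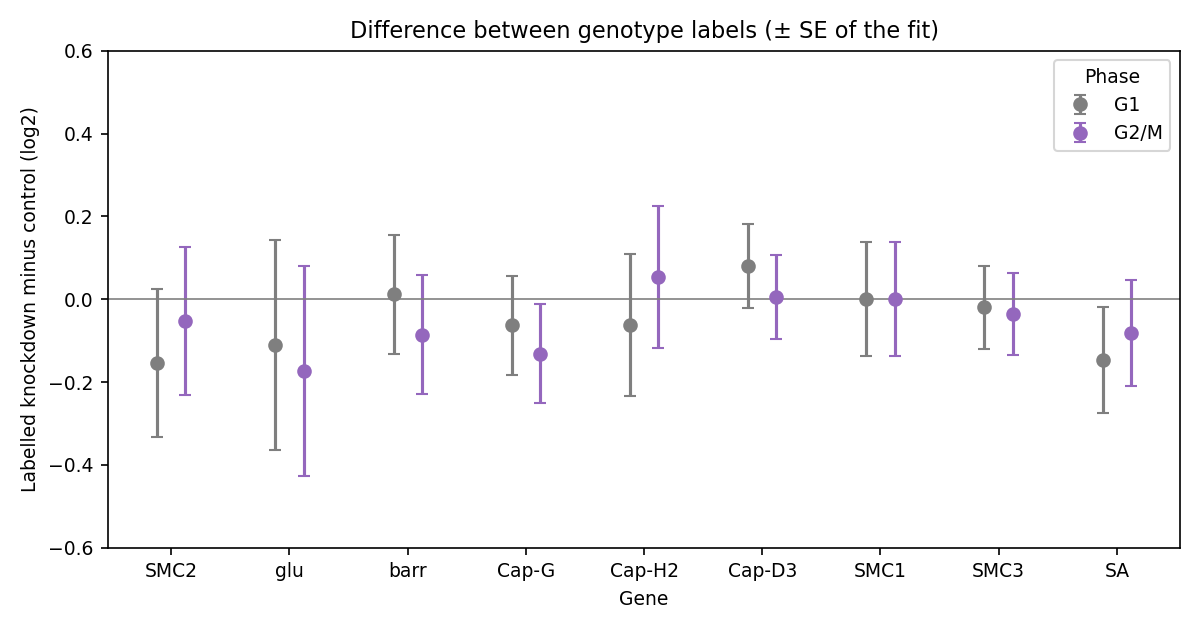
Difference between libraries labelled knockdown and control (log2) for each subunit gene in G1 and in G2/M; points are estimates from the fit to all 10 libraries and bars ± SE. All points lie between -0.17 and 0.08.

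Other genes that act on the 2 complexes were followed in the same comparison of phases. Of 20 listed genes 18 were measured. Without a block 3 of these were called higher in G2/M and 1 lower, where 3.40% and 1.82% of all probe sets were. With culture as a block the counts were 5 and 1, where 10.3% of all probe sets were called higher and 19.3% passed in either direction. The median difference of the 18 genes was 0.08. Among condensin partners and genes of the related Smc5/6 complex, 2 of 5 passed, both upward. Cap-D2, the condensin I subunit that was not among the 10 genes, rose by 0.90 ± 0.17 (SE, adjusted p of 0.0197 in limma), and its phases did not overlap (7.69 to 8.28 in G1, 8.49 to 9.29 in G2/M). MAGE, a subunit of the Smc5/6 complex, rose by 0.39 ± 0.09 (SE, adjusted p of 0.0369 in limma). The call of Cap-D2 was lost without G2/M control 1, G1 control 2, G2/M control 2 or G1 knockdown 2 (adjusted p from 0.0553 to 0.0709), and that of MAGE without any 1 library other than G2/M knockdown 2 (0.0505 to 0.118) and with an intensity trend in the variance (0.0502). SMC5 and SMC6 differed by 0.19 and -0.19 and did not pass.

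Of 8 genes for cohesin loading, release and acetylation, 1 passed without a block. Nipped-B, which loads cohesin onto chromosomes, read 7.09, 7.56, 6.48, 6.79 and 7.12 in G1 (control 1, control 2, control 3, knockdown 2, knockdown 3). In G2/M it read 6.23, 6.35, 6.25, 5.98 and 5.85. All G2/M libraries lay below all G1 libraries, where 3.35% of all probe sets did, and the fall was smallest in control 3. The G2/M values also lay below the array medians of 6.55 to 6.61, so the size of the fall rests on dim signals. The difference was -0.88 ± 0.18 (SE), with an adjusted p of 0.0258 in limma. That call was lost without G1 control 1, G2/M control 1, G2/M control 2, G1 knockdown 3 or G2/M knockdown 3 (adjusted p from 0.0590 to 0.0914). Its loading partner Mau2 differed by 0.14, the release factor wapl by -0.10, pds5 by -0.05 and the SMC3 acetyltransferase eco by 0.05, and none of these passed. san, an acetyltransferase needed for centromeric cohesion, differed by 0.22 and passed with culture as a block (adjusted p of 0.0139 in limma), as did thr of the next group (0.26, adjusted p of 0.0131). The blocked call of san was lost without control 2 (0.0517) or knockdown 3 (0.0511), and that of thr without control 2 (0.0599).

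Of 5 genes for the cleavage and protection of cohesin, pim passed without a block. pim, the fly securin, rose by 0.46 ± 0.11 (SE, adjusted p of 0.0454 in limma), with a smaller difference in control 3 (0.14) than in the other cultures (0.28 to 0.67). Its call was lost without any 1 library other than G2/M control 3 or G2/M knockdown 2 (adjusted p from 0.0737 to 0.151), with cyclic loess (0.0509) and with an intensity trend in the variance (0.0504). With culture as a block, Cap-D2, MAGE, Nipped-B and pim passed whichever culture was left out. Separase itself, Sse, differed by 0.10, its partner thr by 0.26, and mei-S332, the fly shugoshin that protects centromeric cohesin, by 0.25, and these did not pass without a block. Of 5 measured genes for germline cohesion none passed, with sunn at 0.12 and tef at 0.32 having the smallest p.

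**Figure D5:**
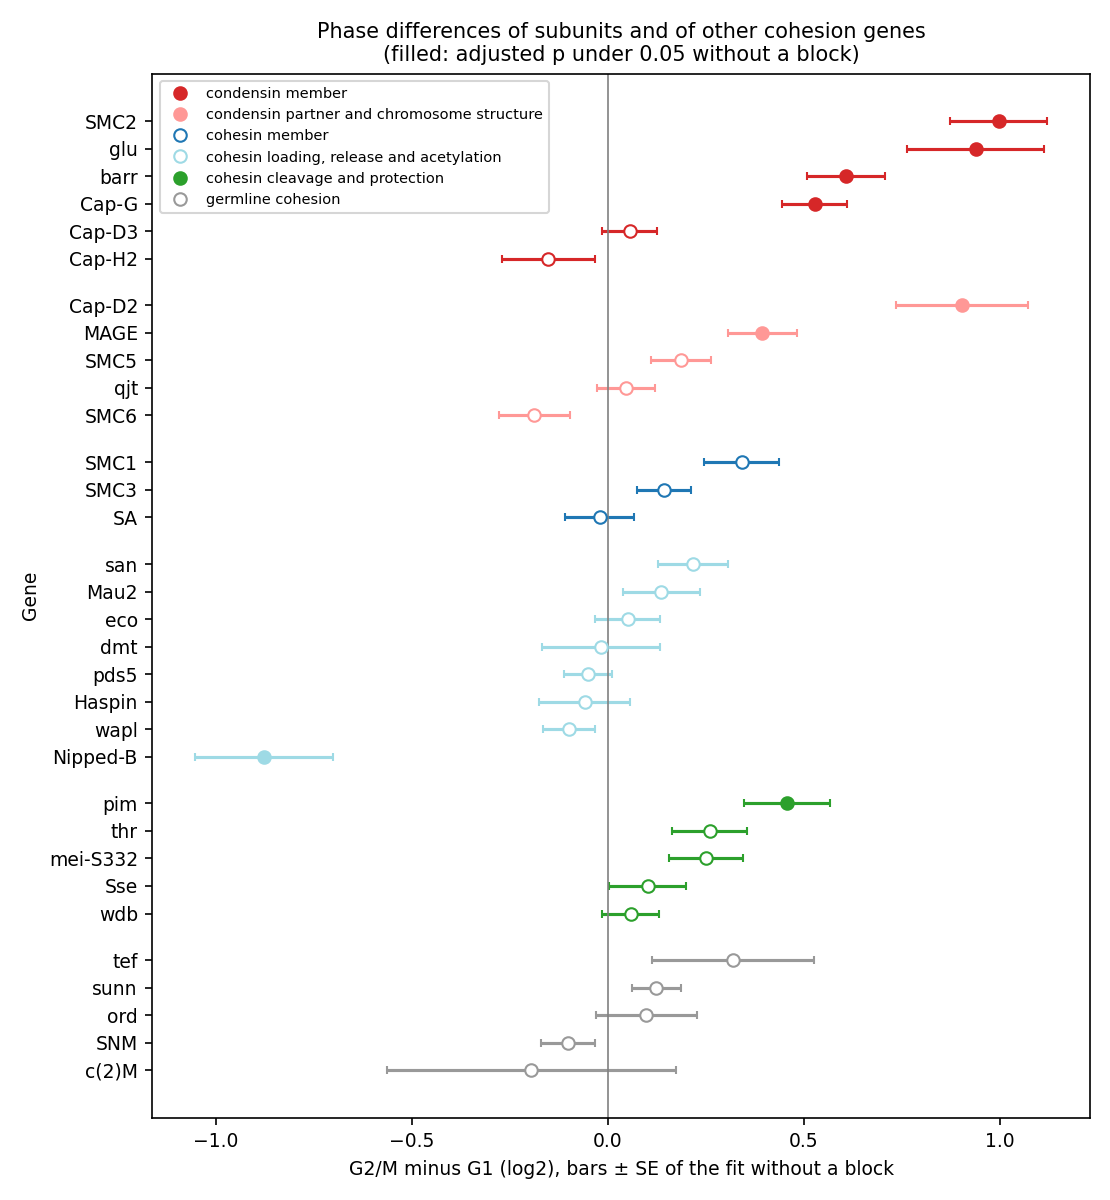
G2/M minus G1 (log2) with ± SE of the fit without a block for the 9 subunit genes and 23 other genes of chromosome structure and cohesion, grouped by role; filled points had an adjusted p under 0.05. Cap-D2 (0.90) lies with SMC2 and glu, and Nipped-B (-0.88) is the filled point below 0.

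The genes with the most similar pattern were searched among 8631 probe sets with 1 gene symbol and a mean signal of at least 6, by Pearson's r over the 10 libraries. Since phase separates the libraries for SMC2, glu, barr and Cap-G, a high r for these mostly ranks genes by how they differ between phases, and it carries no p. SMC2 was most similar to tum, a subunit of centralspindlin (0.996), CG12895 (0.993) and aurB (0.992). The closest to glu were Nubp1 (0.994), msb1l (0.993) and Det (0.991), and those closest to barr were the bipolar kinesin gene Klp61F (0.993), CG4119 (0.989) and CG18661 (0.984). Cap-G was most similar to the kinesin gene Klp67A (0.988), CG31368 (0.983) and lin-52 (0.983). SMC1 and SMC3 shared CG11980 among their closest genes, at 0.984 and 0.977. The best match was 0.979 for Cap-H2, with Or45b, and lower for SA, at 0.884 with Dhpr.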

How the data were processed

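The authors deposited log2 signals per probe set, and the submitters' processing notes name RMA, without a version in the sources used here. Its quantile step gives every array the same distribution of probe intensities, before these are summarised into probe sets. It so removes most of a shift common to most transcripts. Array medians of the values used lay between 6.55 and 6.61. Per the labels' protocols, cDNA was amplified for 15 cycles before labelling. Of 18952 probe sets, 183 controls were left out, and no dim probe sets were filtered. Symbols came from the platform table (13647 probe sets with 1 symbol) and were updated through RefSeq Release 6.

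The fit used limma 3.58.1 (R 4.3.3) with 1 coefficient per group, all 10 arrays and no block (residual df 6). The phase difference over all cultures is the mean of 5 culture differences. Each ± SE comes from this fit without a block, also where a p with culture as a block stands beside it. Level differences between cultures of a group therefore count in the SE. Benjamini-Hochberg adjustment ran over 18769 probe sets, with a threshold of 0.05. Library deviations from group means correlated at 0.555, 0.514, 0.685, 0.655 and 0.655 within cultures control 1 to 3 and knockdown 2 and 3, all over the bound of 0.1 (the 2 knockdown values are equal by construction, as 2 deviations from a mean mirror each other, and count as 1), so values with culture as a block are also given. Scripts were tested on simulated data. The number of arrays limits precision.

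All members were named. From each other list the text takes at most 4 genes that passed, or the 2 of smallest p where none did; others were chosen after their values were seen. Members and lists were chosen with earlier results of these data known. Alternatives were block, scaling, dim filter, variance trend, groups in the fit and libraries left out.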

Additional observations from a re-analysis of the deposited data

How the results depend on the processing

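SMC2, glu, barr and Cap-G passed over all cultures under every scaling, filter and variance alternative, and the phase differences of the 9 members kept their sign there (Cap-D3 was too dim for the filter). Probe sets called over all cultures (979, of which 638 higher) became 3623 with culture as a replicate block, 1755 without control 3 and knockdown 2, and 3664 with both changes together. They ranged from 246 to 1074 with 1 library left out (lowest without G2/M control 1), and from 2189 to 3414 with 1 culture left out under the block. Members called ranged from 2 to 5 with 1 library left out. In control 3 and knockdown 2 alone, the median of the members was 0.12 against 0.34. SA became 0.13 without control 3 and knockdown 2, with or without the block, and ranged from -0.0947 to 0.0535 with 1 library and from -0.10 to 0.04 with 1 culture left out.

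In libraries labelled control, 169 probe sets were called, 1678 with the replicate block, 481 without control 3 and knockdown 2, 288 with a mean of at least 6, 74 with only the groups compared, and 0 to 213 with 1 library left out. Members called there were 4 with the block, 4 without control 3 and knockdown 2, 2 with median centring, 3 with cyclic loess, 3 with the dim filter, and 0 to 3 with 1 library left out. SA became 0.0449 without control 3 and ranged from -0.10 to 0.00673 with 1 library left out. In libraries labelled knockdown, 0 probe sets became 315 (1 member) with the block. The count was 2 each with median centring, cyclic loess and the dim filter, and 0 to 1 with 1 library left out. Without control 3 and knockdown 2, this comparison rested on knockdown 3 alone, with 1 library per phase. The member median was then 0.56 and Cap-D3 differed by -0.11. SA became -0.0395 with cyclic loess. With 1 library left out, Cap-H2 ranged from -0.29 to 0.12, Cap-D3 from -0.12 to 0.14 and SA from -0.17 to 0.20.

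Between labels, leaving out control 3 and knockdown 3 gave 363 called probe sets in G1 and 131 in G2/M, with 0 members among them and a member median of -0.205 in G2/M. That fit was chosen with the Slimp values known and sets control 1 and 2 (low Slimp signal) against knockdown 2 (high). It holds 1 knockdown library per phase, assumed to vary like the control libraries. The median interaction of the members ranged from -0.0959 to 0.112 with 1 library left out. Each member has 1 probe set, so averaging probe sets gave no alternative. Within labels the block also called Cap-D2, Nipped-B, MtnB, Pxn and He in control and Cap-D2, CycB3, fzy, ncd and MtnB in knockdown. The causes were not tested. Dim signal limits Cap-D3.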

Other observations

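The other observations here were chosen after their values were seen. c(2)M, a meiotic gene of the kleisin family, was not called between phases (-0.19 ± 0.37, SE of the fit without a block), but its level varied between cultures. In G1 it read 6.33, 6.10, 7.76, 7.11 and 6.13 (log2) in control 1, control 2, control 3, knockdown 2 and knockdown 3, and in G2/M 6.27, 5.85, 6.98, 7.04 and 6.30. In both phases control 3 and knockdown 2, the cultures with high Slimp signal, were the highest. This is a description, with no test of c(2)M between cultures.

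Probe sets of 1 gene did not always move alike. The 2 probe sets of SMC5 differed by 0.19 and -0.20 between phases, and neither passed. For the probe set at -0.20 all G2/M libraries lay below all G1 libraries, where 3.35% of all probe sets did. For the Cdc20 gene fzy, 1 probe set rose by 1.06 while the other 2 differed by -0.19 and -0.28. Each of the 9 subunit genes was read by a single probe set, so no such comparison can be made for them.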
